A study of Mus musculus with 11 samples.

Results

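The SLC25 mitochondrial carriers were examined in RNA from mouse CD8+ T cells that were left naive, stimulated, or stimulated in the presence of an mTOR inhibitor. Members were all protein-coding genes of the deposited gene table whose symbol is Slc25a followed by a number, which gave 47 of 55414 genes. The rule uses names alone and no measured value. Of these 47 members, 42 passed the filter on low counts and were tested among 22238 genes.

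The cells carried the OT-I genotype, a transgenic T cell receptor that recognises a peptide of ovalbumin, and all 11 libraries share it. Naive libraries (n = 4) came from cells with no treatment, and stimulated libraries (n = 4) from cells given DMSO together with N4, the ovalbumin peptide that OT-I cells bind. Torin libraries (n = 3, numbers 1, 3 and 4) came from cells given N4 and Torin, an inhibitor of the kinase mTOR. The time was 12 h in all groups, and age, sex, culture conditions and Torin dose are not given in the labels. Nothing in the labels ties a library to its own mouse or culture, so p-values measure the spread between libraries, which may in part be technical.

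SLC25 proteins sit mostly in the inner mitochondrial membrane, where each one exchanges or imports a small set of solutes between cytosol and matrix. Among their cargoes are ADP and ATP, phosphate, citrate and malate, amino acids, nucleotides, vitamins and cofactors, iron and glutathione. T cells that leave the resting state enlarge and remodel their mitochondria, and the carriers connect mitochondrial metabolism with the synthesis of lipids, nucleotides and amino acids in the cytosol. mTOR is a kinase that couples growth signals to such synthesis.

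The estimated counts of a library summed to between 241865667 and 405884097. Levels are given as CPM, estimated counts scaled to a common library size after TMM composition factors, and changes as log2 ratios from edgeR, where past the threshold means a Benjamini-Hochberg adjusted p under 0.05 over all tested genes. Markers of CD8 T cells, among them Cd8a and Cd3e, were present in each library, with 7 genes summing to 5091 to 6400 CPM in naive, 2205 to 3023 CPM in stimulated and 4049 to 4213 CPM in Torin libraries. The libraries of number 4 also held B cell and plasma cell transcripts (8 genes, 13377 to 48046 CPM, against at most 367 CPM elsewhere). Naive 2 and stimulated 2 held granulocyte transcripts (10 genes, 8573 and 2071 CPM, against 16.4 to 176 CPM elsewhere), and naive 2 also monocyte and macrophage transcripts (8 genes, 2120 CPM, against 8.19 to 219 CPM). Their part in the values below was not tested, but gene-level results of carriers are given without these libraries where a call named below depended on them. Transcript ratios were refitted only with single libraries left out. In bulk RNA of this kind, fewer cells of a type and less RNA per cell cannot be told apart.

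Stimulation changed the carriers in both directions. Of 42 tested members, 23 passed the threshold between stimulated and naive libraries, 12 higher and 11 lower, which is 54.8% against 39.5% of all tested genes. Upward calls made up 28.6% of members against 19.2% of all genes, and downward calls 26.2% against 20.2%. The counts by role that follow are small and stand beside these shares of all genes. Changes of at least 2-fold accounted for 9 of the 12 rises and 10 of the 11 falls, a share that was not computed over all called genes. The median log2 change was -0.17 over tested members and -0.22 over all tested genes. Libraries of both groups did not overlap for 24 members (57.1%, against 41.5% of all tested genes). Without composition factors the median of all genes shifted from -0.22 to -0.71, and 22 members passed, 7 higher and 15 lower. Without the libraries of number 2 there were 19 calls (10 higher, 9 lower), and without those of number 4 there were 22 (11 of each).

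**Figure D1:**
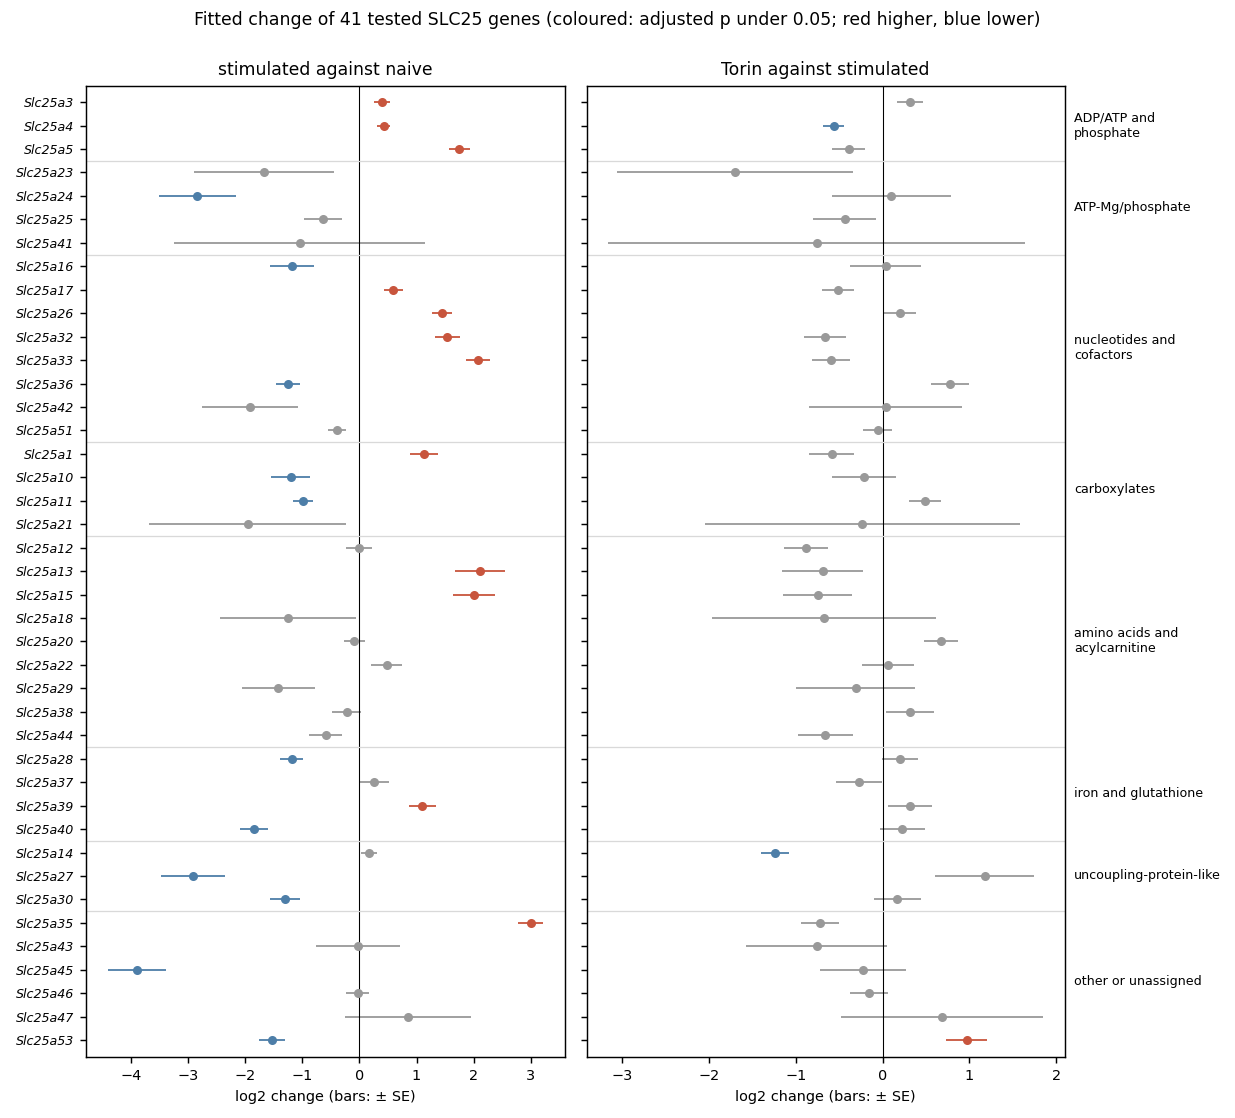
Log2 change of 41 of the 42 tested SLC25 members between stimulated and naive libraries and between Torin and stimulated libraries, from the edgeR fit, with bars of 1 standard error and members grouped by role; red (higher) and blue (lower) points passed the adjusted threshold of 0.05, grey points did not. Stimulation gave 12 rises and 11 falls, from -3.89 for Slc25a45 to 2.997 for Slc25a35, while in the Torin comparison 3 members passed. The rises of Slc25a3 and Slc25a4 turn to -0.10 and -0.06 when library totals alone are used.

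The 3 tested carriers of ADP, ATP and phosphate, the substrates and product of ATP synthase, had the highest mean levels per kilobase of transcript. All 3 passed as higher in stimulated libraries, though Slc25a3 and Slc25a4 did not with library totals alone. Slc25a5, an ADP/ATP exchanger of proliferating cells, stood at 553, 438, 383 and 285 CPM in naive 1 to 4, 1495, 1350.2, 1367 and 1377 CPM in stimulated 1 to 4 and 1046, 1016 and 1139 CPM in Torin 1, 3 and 4. Each stimulated library was above each naive library, and the Torin libraries lay between them (log2 change 1.75, SE 0.18, edgeR adjusted p = 3.3e-05). The change was 3.37-fold, and it kept its call under each of 20 alternative settings.

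Slc25a4, the other ADP/ATP exchanger expressed here, stood at 322, 365, 321 and 319 CPM in naive 1 to 4, 451, 475, 469 and 389 CPM in stimulated 1 to 4 and 316, 274 and 316 CPM in Torin 1, 3 and 4. Naive and stimulated libraries did not overlap (log2 change 0.43, SE 0.11, edgeR adjusted p = 0.0113), but with library totals alone the change was -0.06, adjusted p = 0.748, and the sign of the change was thus set by the scaling. Slc25a3, the phosphate carrier, stood at 236, 169.9, 197 and 164 CPM in naive 1 to 4, 265, 248, 272 and 224 CPM in stimulated 1 to 4 and 303, 330.4 and 309 CPM in Torin 1, 3 and 4. The highest naive library exceeded 1 of the stimulated ones, and the rise was small (log2 change 0.40, SE 0.14, edgeR adjusted p = 0.0385). This call of Slc25a3 ended in 11 of 20 alternatives, among them those without the libraries of number 2 or number 4 and those without naive 2, 3 or 4, stimulated 1 or 2 or Torin 1 or 3 (log2 changes of 0.33 to 0.51 when single libraries were left out), and with library totals alone the sign turned (-0.10, adjusted p = 0.666). The germ cell ADP/ATP exchanger Slc25a31 was listed at 0 in all 11 libraries.

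Compared per kilobase of transcript, Slc25a5 held the highest level of all members in each group, at 336 ± 90.6 CPM per kb in naive, 1129.6 ± 53.4 in stimulated and 862 ± 51.7 in Torin libraries (mean ± SD, n = 4, 4 and 3). Its share of the summed level of all members per kb was 34.9% ± 3.50 in naive, 56.9% ± 1.41 in stimulated and 52.0% ± 2.26 in Torin libraries. Slc25a4 came next in naive libraries, at 166 to 189.7 CPM per kb, above Slc25a3 at 103 to 149.9. The same order held after stimulation, with ranges of 202 to 247 and 145 to 178 CPM per kb. Under Torin the order of this pair was the other way round, 142 to 164 CPM per kb for Slc25a4 and 191 to 214 for Slc25a3, again without overlap. By mean, Slc25a11 came next in naive libraries (78.7 ± 8.35 CPM per kb) and Slc25a39 in stimulated libraries (128 ± 23.9). Under Torin the level of Slc25a39 (156 ± 27.9, range 124 to 176) was close to that of Slc25a4, and their ranges overlapped.

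The ratio of Slc25a5 to Slc25a4 per kb was 1.39 to 2.68 in the naive libraries, 4.42 to 5.5 in the stimulated libraries and 5.15 to 5.77 in the Torin libraries. The naive libraries did not reach the others, while stimulated and Torin libraries overlapped. This ratio and those of further related pairs were chosen after the values were seen and carry no test. A processed pseudogene of Slc25a5 that could share its reads was listed at 0.58 to 2.597 CPM.

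**Figure D2:**
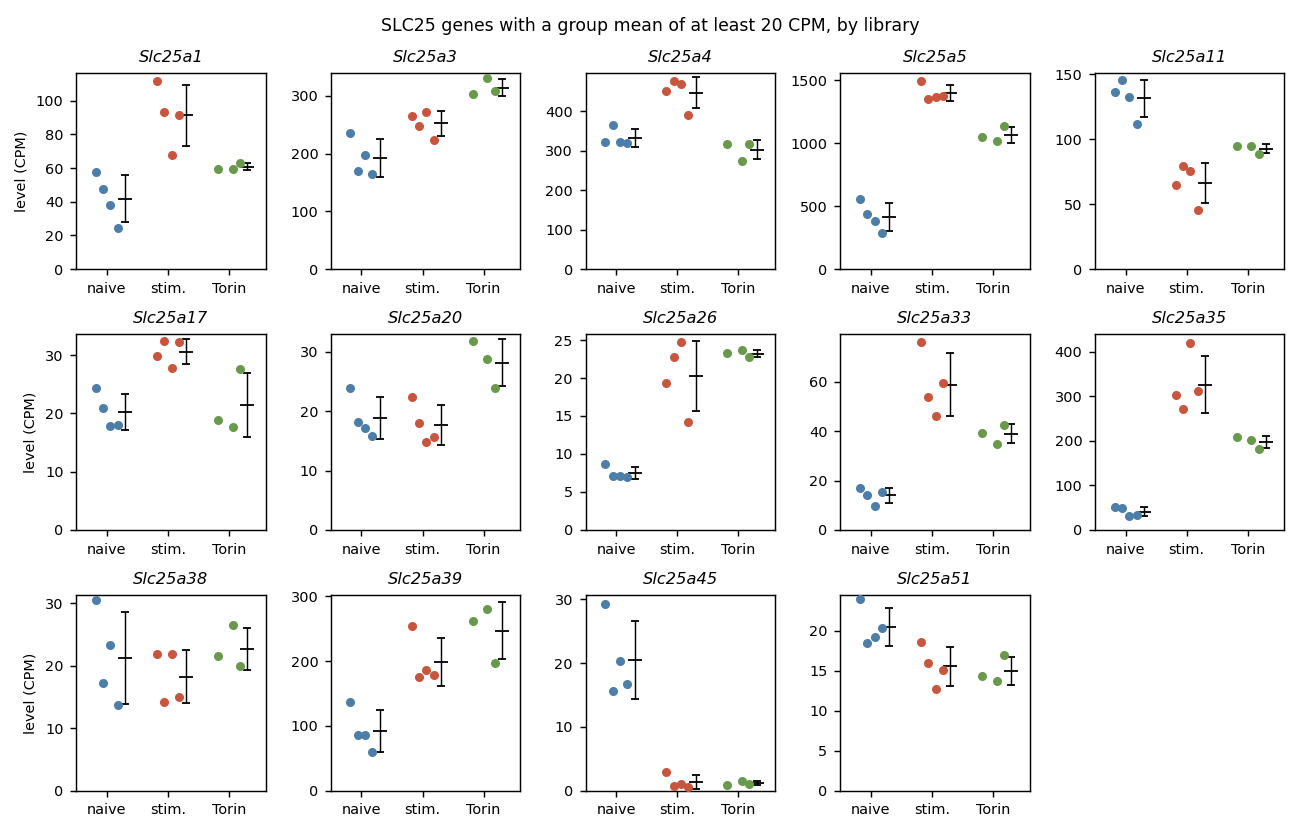
Levels (CPM, linear axes from 0) of 14 SLC25 members with a group mean of at least 20 CPM, 1 panel each; points are libraries of the naive (blue), stimulated (red) and Torin (green) groups, and black bars give the mean and SD (n = 4, 4 and 3). Slc25a5 has the highest levels, from 285 CPM in naive 4 to 1495 CPM in stimulated 1, and Slc25a45 is at 15.7 CPM or more in naive libraries and at most at 3.0 CPM in the others.

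The carriers of ATP-Mg and phosphate fell or did not pass the threshold. Slc25a24 fell from 1.97 ± 0.757 to 0.275 ± 0.214 CPM (log2 change -2.84, SE 0.67, edgeR adjusted p = 0.00607), both low levels. Slc25a23 had separate naive and stimulated ranges, with means of 4.69 ± 1.35 and 1.47 ± 1.11 CPM (edgeR adjusted p = 0.31) and Slc25a25 at 3.59 ± 1.24 and 2.31 ± 0.704 CPM (adjusted p = 0.159). Slc25a41 did not exceed 0.493 CPM in any library.

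Carriers of nucleotides and cofactors moved in both directions, 4 of 9 higher (44.4%, against 19.2% of all tested genes) and 2 of 9 lower (22.2%, near the 20.2% of all tested genes). Slc25a33, a pyrimidine nucleotide carrier, stood at 16.8, 14, 9.76 and 15.3 CPM in naive 1 to 4, 76, 53.8, 46.1 and 59.7 CPM in stimulated 1 to 4 and 39.4, 35 and 42.7 CPM in Torin 1, 3 and 4. All stimulated libraries exceeded all naive ones by a wide margin (log2 change 2.08, SE 0.20, edgeR adjusted p = 2.56e-05). An antisense gene, Gm13068, shares 281 nt (14.9%) of the Slc25a33 exons. Slc25a36, which also carries pyrimidine nucleotides, went the other way, with 11.1, 11, 8.52 and 12.7 CPM in naive 1 to 4, 3.99, 3.45, 5.93 and 4.94 CPM in stimulated 1 to 4 and 6.99, 7.78 and 8.8 CPM in Torin 1, 3 and 4. Its naive and stimulated libraries were separate (log2 change -1.25, SE 0.21, edgeR adjusted p = 0.000625). The ratio of Slc25a33 to Slc25a36 per kb was 2.28 to 2.74 in the naive libraries, 17.2 to 43.8 in the stimulated libraries and 8.57 to 11.3 in the Torin libraries, so the 3 groups did not overlap in this ratio.

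Slc25a32, the mitochondrial folate carrier, stood at 5.98, 5.1, 5.41 and 4.18 CPM in naive 1 to 4, 13.8, 18.8, 13.8 and 13.8 CPM in stimulated 1 to 4 and 8.38, 6.92 and 13.2 CPM in Torin 1, 3 and 4. Each stimulated library lay above each naive one (log2 change 1.54, SE 0.23, edgeR adjusted p = 0.000279). Slc25a26, which imports the methyl donor S-adenosylmethionine, stood at 8.62, 7.15, 7.07 and 6.97 CPM in naive 1 to 4, 19.4, 22.7, 24.8 and 14.3 CPM in stimulated 1 to 4 and 23.2, 23.6 and 22.8 CPM in Torin 1, 3 and 4. Here too the groups did not overlap (log2 change 1.44, SE 0.18, edgeR adjusted p = 8.53e-05). Slc25a17, a peroxisomal carrier of cofactors such as coenzyme A, stood at 24.4, 20.9, 17.8 and 18.1 CPM in naive 1 to 4, 29.8, 32.4, 27.8 and 32.3 CPM in stimulated 1 to 4 and 18.9, 17.7 and 27.7 CPM in Torin 1, 3 and 4. It rose by a smaller amount (log2 change 0.59, SE 0.17, edgeR adjusted p = 0.0174), which did not pass without naive 3 (0.53, adjusted p = 0.0508), without the libraries of number 2 (0.58, adjusted p = 0.0727) or with library totals alone (0.10, adjusted p = 0.734).

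Other cofactor carriers fell or did not pass. Slc25a16 fell from 4.46 ± 2.15 to 1.96 ± 0.568 CPM (log2 change -1.18, SE 0.38, edgeR adjusted p = 0.0295). The call of Slc25a16 was lost with the replicate number as a block (-1.09, adjusted p = 0.0549), without the libraries of number 2 (-1.29, adjusted p = 0.0529), and without naive 1 (-0.84), naive 3 (-1.14), stimulated 2 (-1.13), stimulated 3 (-0.92) or Torin 4 (-1.09). Slc25a51, which imports NAD, stood at 23.9, 18.4, 19.2 and 20.3 CPM in naive 1 to 4, 18.5, 16, 12.7 and 15.1 CPM in stimulated 1 to 4 and 14.3, 13.7 and 16.9 CPM in Torin 1, 3 and 4. Stimulated values of Slc25a51 reached from below the naive range into it (adjusted p = 0.0643). Slc25a42, a coenzyme A carrier, had separate ranges of 1.42 to 3.87 CPM in naive and 0.0608 to 1.23 CPM in stimulated libraries but did not pass (adjusted p = 0.0942).

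Among carboxylate carriers Slc25a1 rose while Slc25a11 and Slc25a10 fell. Slc25a1, which exports citrate for lipid synthesis in the cytosol, stood at 57.4, 47.3, 37.9 and 24.4 CPM in naive 1 to 4, 112, 93.3, 68 and 91.8 CPM in stimulated 1 to 4 and 59.5, 59.6 and 63.2 CPM in Torin 1, 3 and 4. The lowest stimulated library was above the highest naive one (log2 change 1.13, SE 0.24, edgeR adjusted p = 0.00329). With library totals alone its change was 0.65, adjusted p = 0.107. Slc25a11, which exchanges oxoglutarate and malate in the malate-aspartate shuttle, stood at 137, 145, 132 and 112 CPM in naive 1 to 4, 64.9, 79.2, 75.4 and 45.3 CPM in stimulated 1 to 4 and 94.7, 94.5 and 88.9 CPM in Torin 1, 3 and 4. All 4 stimulated libraries were below all 4 naive ones (log2 change -0.99, SE 0.17, edgeR adjusted p = 0.000856). On the opposite strand Rnf167 shares 189 nt (8.9%) of the Slc25a11 exons, and without strand-specific counting, which the labels do not state, reads there cannot be assigned. Rnf167 stood at means of 241, 28.5 and 64.7 CPM in naive, stimulated and Torin libraries, and its part in the fall of Slc25a11 was not tested.

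Slc25a10, the dicarboxylate carrier, stood at 18.6, 16.2, 14.8 and 9.56 CPM in naive 1 to 4, 7.94, 7.18, 3.18 and 7.47 CPM in stimulated 1 to 4 and 3.18, 6.86 and 6.61 CPM in Torin 1, 3 and 4. It fell without overlap (log2 change -1.20, SE 0.34, edgeR adjusted p = 0.0164), though not past the threshold without the libraries of number 2 (-1.21, adjusted p = 0.0579). Slc25a21, which carries oxoadipate, did not exceed 0.494 CPM.

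Carriers of amino acids gave 2 rises and no fall among 9 tested members, a share of rises (22.2%) near the 19.2% of all tested genes. Slc25a13, an aspartate/glutamate exchanger of the malate-aspartate shuttle, stood at 1.26, 2.01, 0.50 and 0.884 CPM in naive 1 to 4, 5.13, 6.61, 2.96 and 5.45 CPM in stimulated 1 to 4 and 3.86, 1.88 and 3.63 CPM in Torin 1, 3 and 4. Slc25a12, the paralog with the same exchange activity, stood at 10.1, 8.56, 9.37 and 6.67 CPM in naive 1 to 4, 10.9, 8.07, 8.6 and 6.92 CPM in stimulated 1 to 4 and 3.94, 6.41 and 3.67 CPM in Torin 1, 3 and 4. Slc25a13 rose from a low level (log2 change 2.12, SE 0.44, edgeR adjusted p = 0.00276), whereas the naive and stimulated ranges of Slc25a12 coincided (adjusted p = 0.982). Their ratio per kb, Slc25a13 to Slc25a12, was 0.0779 to 0.357 in the naive libraries, 0.42 to 1.31 in the stimulated libraries and 0.333 to 2.38 in the Torin libraries. The naive ratios lay below the stimulated ones, and the Torin ratios overlapped both groups.

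Slc25a15, which exchanges ornithine and citrulline, stood at 3.46, 0.816, 2.17 and 1.97 CPM in naive 1 to 4, 9.77, 7.88, 7.33 and 8.85 CPM in stimulated 1 to 4 and 4.08, 4.33 and 6.69 CPM in Torin 1, 3 and 4. It rose without overlap (log2 change 2.01, SE 0.37, edgeR adjusted p = 0.00139). Slc25a22, a glutamate carrier, stood at 20.3, 12, 12 and 7.09 CPM in naive 1 to 4, 18.8, 22, 14 and 16.7 CPM in stimulated 1 to 4 and 17.5, 18 and 20.6 CPM in Torin 1, 3 and 4, and its groups overlapped (adjusted p = 0.198). Slc25a38, a glycine carrier needed for heme synthesis, stood at 30.5, 17.3, 23.4 and 13.8 CPM in naive 1 to 4, 21.9, 14.2, 21.9 and 15 CPM in stimulated 1 to 4 and 21.6, 26.5 and 20 CPM in Torin 1, 3 and 4. Naive libraries spanned the stimulated range of Slc25a38 (adjusted p = 0.53). The acylcarnitine carrier Slc25a20 had naive and stimulated means of 18.8 ± 3.56 and 17.7 ± 3.35 CPM (adjusted p = 0.743), the branched-chain amino acid carrier Slc25a44 at 6.12 ± 1.88 and 4.06 ± 1.08 CPM (adjusted p = 0.134), and Slc25a29, a carrier of basic amino acids, at 4.91 ± 1.6 and 1.84 ± 1.22 CPM (adjusted p = 0.106). Slc25a18, a glutamate carrier, did not exceed 0.188 CPM, and the ornithine carrier Slc25a2 was not tested.

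Of 4 carriers tied to iron or glutathione, 1 rose and 2 fell. Slc25a39, which imports glutathione, stood at 137, 86.1, 85.9 and 60.5 CPM in naive 1 to 4, 254, 175, 186 and 178 CPM in stimulated 1 to 4 and 262, 281 and 197 CPM in Torin 1, 3 and 4. Stimulated libraries were all higher than naive ones (log2 change 1.10, SE 0.24, edgeR adjusted p = 0.00374), although with library totals alone the change was 0.60, adjusted p = 0.122. Slc25a40, its paralog in glutathione import, stood at 6.65, 7.41, 10.3 and 8.68 CPM in naive 1 to 4, 2.15, 2.84, 2.35 and 1.88 CPM in stimulated 1 to 4 and 2.56, 3.58 and 1.95 CPM in Torin 1, 3 and 4. Naive and stimulated libraries did not overlap (log2 change -1.84, SE 0.25, edgeR adjusted p = 0.000158). The ratio of Slc25a39 to Slc25a40 per kb was 11 to 36.1 in the naive libraries, 107 to 204 in the stimulated libraries and 121 to 201 in the Torin libraries.

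Slc25a28, the iron importer mitoferrin 2, stood at 19.96, 16.3, 22.9 and 19.6 CPM in naive 1 to 4, 10.5, 7.92, 8.16 and 7.98 CPM in stimulated 1 to 4 and 8.84, 13.2 and 7.88 CPM in Torin 1, 3 and 4. It fell without overlap (log2 change -1.19, SE 0.20, edgeR adjusted p = 0.000601). Slc25a37, the iron importer mitoferrin 1 of erythroid cells, stood at 2.5, 5.26, 2.89 and 3.38 CPM in naive 1 to 4, 4.4, 4.03, 3.7 and 4.72 CPM in stimulated 1 to 4 and 3.91, 3.53 and 3.05 CPM in Torin 1, 3 and 4. Its highest value was in naive 2, a library with granulocyte and monocyte transcripts, and its change did not pass (adjusted p = 0.433). Erythroid markers (8 genes) summed to 141 to 688 CPM across libraries, and their part in the level of Slc25a37 was not tested.

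**Figure D3:**
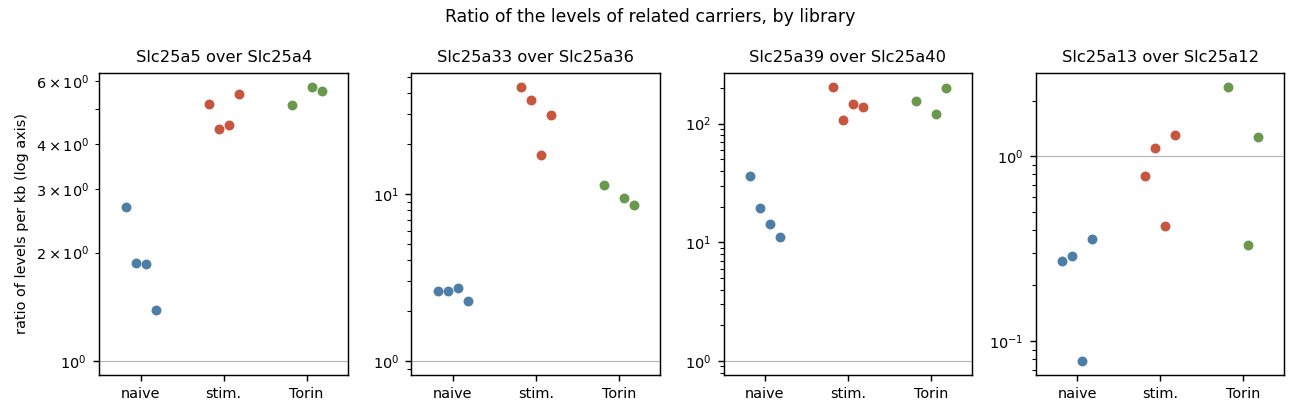
Ratios of related carriers per kb of transcript, by library (log axes, 1 panel per pair; points are libraries of the naive, stimulated and Torin groups, and the grey line marks a ratio of 1). The ratio of Slc25a5 to Slc25a4 runs from 1.39 to 2.68 in naive and 4.42 to 5.50 in stimulated libraries, and that of Slc25a33 to Slc25a36 from 2.28 to 2.74 and 17.2 to 43.8.

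Members related to uncoupling proteins, which are known for proton leak or proton-coupled exchange, gave 2 falls. Slc25a27 fell from 4.72 ± 2.03 to 0.626 ± 0.474 CPM (log2 change -2.91, SE 0.57, edgeR adjusted p = 0.00181) and Slc25a30 from 6.27 ± 1.03 to 2.54 ± 0.863 CPM (log2 change -1.30, SE 0.26, edgeR adjusted p = 0.00201). For Slc25a14 the means were 12.6 ± 0.235 CPM (naive) and 14.1 ± 1.79 CPM (stimulated), without a call (adjusted p = 0.39).

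Members without a role in the lists above included both extremes. Slc25a35 stood at 50.7, 49.4, 30.1 and 33.4 CPM in naive 1 to 4, 303, 271, 420.3 and 312 CPM in stimulated 1 to 4 and 209, 202 and 182 CPM in Torin 1, 3 and 4. Its naive and stimulated libraries were far apart (log2 change 2.997, SE 0.21, edgeR adjusted p = 7.05e-06), a difference of 7.98-fold. The opposite-strand gene Rangrf shares 1151 of its 1269 exon nt with Slc25a35, which is 31.3% of the 3677 nt of Slc25a35, and it was listed at 0 in all 11 libraries. Counts of both genes therefore cannot be told apart, and the rise belongs to the locus of Slc25a35 and Rangrf.

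Slc25a45 stood at 29.2, 15.7, 20.3 and 16.6 CPM in naive 1 to 4, 3.0, 0.783, 1.08 and 0.65 CPM in stimulated 1 to 4 and 0.869, 1.56 and 1.1 CPM in Torin 1, 3 and 4. All naive libraries were far above all stimulated ones (log2 change -3.89, SE 0.51, edgeR adjusted p = 0.000128). Slc25a53 fell from 8.35 ± 0.63 to 2.9 ± 0.666 CPM (log2 change -1.53, SE 0.22, edgeR adjusted p = 0.000288). Slc25a46, a protein of the outer mitochondrial membrane, had means of 13.3 ± 1.52 (naive) and 13 ± 1.42 CPM (stimulated) (adjusted p = 0.93). Slc25a43 and Slc25a47 had group means below 1 CPM and did not pass, Slc25a34 was not tested, and Slc25a48 and Slc25a54 were listed at 0 in all libraries.

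Of the 12 members that rose, naive 1 was the highest naive library in 10 and naive 2 in the other 2, while among the 11 that fell naive 1 was highest in 5. For Slc25a5, naive 1 and naive 4 differed by 553 against 285 CPM, the widest gap within its groups. Within library numbers, Slc25a5, Slc25a1, Slc25a26, Slc25a32, Slc25a33 and Slc25a35 were higher in the stimulated library for 4 of 4 numbers, and Slc25a45 and Slc25a53 lower for 4 of 4. The naive and stimulated libraries of these members did not overlap, so this agreement follows from the values above and adds no support.

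Promoter sequences were searched for 3 motifs. RefSeq windows of the GRCm38.p6 assembly, from 250 bases before to 50 after a transcription start, were at hand for 36 of the 47 members. The E-box CACGTG, the same on both strands and known as a site for MYC and related factors, was found in 7 of these 36 genes (19.4%) against 8.09% of 27025 genes with such windows. By call, it was present in 4 of 9 rising members, 1 of 10 falling members, 1 of 13 that did not pass and 1 of 4 not tested. The split by call was not computed over all genes, so it is not read as a trait of rising carriers. The palindromic core of the nuclear respiratory factor 1 motif occurred in 0 of 36 members (1.07% of all genes), and TGATGNAAN, a response element of C/EBP and ATF factors, in 0 of 36 (4.5% of all genes), both strands searched. A match describes letters in a window and not binding. The windows of the 4 rising members with an E-box are shown, followed by those of Slc25a36, the falling one, and Slc25a14, the carrier with the largest called fall under Torin. All are written 5′ to 3′ along the gene's strand, with the E-box in capitals.
Slc25a1, chr16:17928170-17928469, minus strand: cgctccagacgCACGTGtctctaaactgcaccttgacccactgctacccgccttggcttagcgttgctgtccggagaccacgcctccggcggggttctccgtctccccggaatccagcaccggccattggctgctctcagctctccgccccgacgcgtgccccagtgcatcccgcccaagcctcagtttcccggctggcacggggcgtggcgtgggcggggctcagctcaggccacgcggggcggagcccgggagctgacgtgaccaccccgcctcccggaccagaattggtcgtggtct
Slc25a13, chr6:6217124-6217423, minus strand: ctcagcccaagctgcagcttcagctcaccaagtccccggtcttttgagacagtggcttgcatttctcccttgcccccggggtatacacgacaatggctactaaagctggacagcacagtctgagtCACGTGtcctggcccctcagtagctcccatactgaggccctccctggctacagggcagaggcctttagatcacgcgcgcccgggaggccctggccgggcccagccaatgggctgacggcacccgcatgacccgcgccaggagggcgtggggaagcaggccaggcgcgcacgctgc
Slc25a15, chr8:22398228-22398527, minus strand: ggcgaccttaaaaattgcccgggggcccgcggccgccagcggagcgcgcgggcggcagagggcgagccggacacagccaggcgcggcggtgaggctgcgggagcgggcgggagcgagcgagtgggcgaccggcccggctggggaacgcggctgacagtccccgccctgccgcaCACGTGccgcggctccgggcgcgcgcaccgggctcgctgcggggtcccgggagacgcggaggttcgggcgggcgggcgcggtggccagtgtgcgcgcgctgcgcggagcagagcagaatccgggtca
Slc25a33, chr4:149774218-149774517, minus strand: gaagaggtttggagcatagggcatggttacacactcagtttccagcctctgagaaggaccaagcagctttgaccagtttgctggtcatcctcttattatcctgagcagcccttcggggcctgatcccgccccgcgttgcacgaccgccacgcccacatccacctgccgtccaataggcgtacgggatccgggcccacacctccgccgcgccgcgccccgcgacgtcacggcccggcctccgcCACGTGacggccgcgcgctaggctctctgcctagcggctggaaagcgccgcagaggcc
Slc25a36, chr9:97110992-97111291, minus strand: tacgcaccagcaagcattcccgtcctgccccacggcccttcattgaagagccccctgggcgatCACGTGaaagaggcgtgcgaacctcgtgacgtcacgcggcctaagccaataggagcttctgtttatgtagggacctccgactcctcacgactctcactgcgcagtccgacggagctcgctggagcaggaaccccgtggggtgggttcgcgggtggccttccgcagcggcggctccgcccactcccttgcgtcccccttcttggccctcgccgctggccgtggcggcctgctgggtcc
Slc25a14, chrX:48623198-48623497, plus strand: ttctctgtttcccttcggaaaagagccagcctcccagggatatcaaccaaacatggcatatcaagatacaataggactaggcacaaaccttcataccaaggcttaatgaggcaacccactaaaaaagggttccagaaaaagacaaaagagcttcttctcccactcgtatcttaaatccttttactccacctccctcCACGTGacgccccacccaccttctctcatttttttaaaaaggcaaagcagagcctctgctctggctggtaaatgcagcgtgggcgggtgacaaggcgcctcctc
Counted from the transcription start, the first base of the E-box lay at -239 in Slc25a1, -125 in Slc25a13, -77 in Slc25a15, -8 in Slc25a33, -187 in Slc25a36 and -54 in the window shown for Slc25a14.

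The second comparison set Torin against stimulated libraries and thus asked what mTOR inhibition changed in cells given the same peptide. Of 42 tested members, 3 passed the threshold, 1 higher and 2 lower (7.14%, against 4.62% of all tested genes, 2.32% higher and 2.3% lower). The median log2 change was -0.22 over tested members and -0.02 over all tested genes. Libraries of both groups did not overlap for 15 members (35.7%, against 19.7% of all tested genes in either direction), with Torin lower in 10 and higher in 5. The split by direction was not computed over all tested genes, so no direction is read from it. The members past the threshold were Slc25a14, Slc25a4 and Slc25a53. DESeq2 called 10 members, 3 higher and 7 lower, against 14% of all genes. The count was 1 without the libraries of number 2 and 0 without those of number 4, where 13 members had an unadjusted p under 0.05 in edgeR. The share of all tested genes at that unadjusted cutoff was not computed, so nothing about the carriers is read from it.

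Slc25a14, related to uncoupling proteins, had the lowest adjusted p of the members. It stood at 12.6, 12.9, 12.4 and 12.5 CPM in naive 1 to 4, 13.9, 15.5, 11.7 and 15.4 CPM in stimulated 1 to 4 and 6.43, 5.23 and 6.3 CPM in Torin 1, 3 and 4. The naive libraries were close to each other, the stimulated ones lay on both sides of them, and all 3 Torin libraries were below both groups (log2 change -1.24, SE 0.16, edgeR adjusted p = 0.00576). The call of Slc25a14 held in 19 of 20 alternatives and ended without the libraries of number 4 (-1.21, adjusted p = 0.0728). Torin libraries were also below naive ones (log2 change -1.07, SE 0.16, edgeR adjusted p = 0.000447).

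Slc25a4 fell under Torin, from a stimulated mean of 446 ± 39.2 to 302 ± 24.2 CPM (log2 change -0.56, SE 0.12, edgeR adjusted p = 0.0313). No Torin library reached the lowest stimulated one. The call of Slc25a4 ended in 11 of 20 alternatives, including the replicate block (-0.52, adjusted p = 0.0604). It also ended without stimulated 2 (-0.53, adjusted p = 0.0809), Torin 1 (-0.60, adjusted p = 0.0998), Torin 3 (-0.50, adjusted p = 0.166) or Torin 4 (-0.58, adjusted p = 0.0748). Without the libraries of number 2 the change was -0.53, adjusted p = 0.0934, and without those of number 4 -0.64, adjusted p = 0.14. Slc25a53 stood at 8.97, 8.68, 8.24 and 7.52 CPM in naive 1 to 4, 3.03, 2.05, 2.85 and 3.66 CPM in stimulated 1 to 4 and 6.41, 4.09 and 6.54 CPM in Torin 1, 3 and 4. Its Torin libraries lay between both other groups (log2 change 0.97, SE 0.24, edgeR adjusted p = 0.0432). This call ended in 17 of 20 alternatives, including the replicate block (0.90, adjusted p = 0.0751). It ended in each of the 11 settings that left out 1 library, without a change of direction (0.84 to 1.16). Without the libraries of number 2 the change was 0.83, adjusted p = 0.118, and without those of number 4 1.01, adjusted p = 0.16.

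Some members separated from the stimulated libraries without passing the threshold, and those that follow first were lower under Torin. The log2 changes, Torin against stimulated, were -0.39 for the ADP/ATP exchanger Slc25a5 (adjusted p = 0.29), -0.59 for the citrate carrier Slc25a1 (adjusted p = 0.241) and -0.59 for the pyrimidine nucleotide carrier Slc25a33 (adjusted p = 0.152). For Slc25a35 the value was -0.72 (adjusted p = 0.0912), for the folate carrier Slc25a32 -0.66 (adjusted p = 0.155), for Slc25a15 -0.75 (adjusted p = 0.325) and for Slc25a17 -0.51 (adjusted p = 0.153). Slc25a12, an aspartate/glutamate exchanger without a call between naive and stimulated libraries, had a change of -0.88 (adjusted p = 0.0776). These are values without a call in edgeR. DESeq2 and the filter at a mean of 5 CPM called Slc25a12 and Slc25a35, and DESeq2 alone also Slc25a17, Slc25a32 and Slc25a33.

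The 4 further members without overlap were higher under Torin. The log2 change of Slc25a11 was 0.49 (adjusted p = 0.167), that of the phosphate carrier Slc25a3 0.32 (adjusted p = 0.262) and that of Slc25a36 0.78 (adjusted p = 0.0709). Slc25a20, the carnitine-acylcarnitine carrier of fatty acid oxidation, was singled out after its values were seen, and stood at 24, 18.2, 17.1 and 15.9 CPM in naive 1 to 4, 22.3, 18, 14.8 and 15.6 CPM in stimulated 1 to 4 and 31.7, 28.8 and 23.9 CPM in Torin 1, 3 and 4. All Torin libraries of Slc25a20 were above all stimulated ones, while naive 1 lay just above the lowest Torin value (log2 change 0.67, SE 0.20, edgeR adjusted p = 0.082). DESeq2 and the filter at a mean of 5 CPM called both Slc25a36 and Slc25a20. With the replicate block the change of Slc25a20 was 0.68, adjusted p = 0.0375. In contrast, the levels of Slc25a26, Slc25a39, Slc25a40, Slc25a28, Slc25a45 and Slc25a10 overlapped between Torin and stimulated libraries, with adjusted p from 0.562 to 0.878.

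Torin against naive libraries showed 21 of 42 members past the threshold, 10 higher and 11 lower (50%, against 32.2% of all tested genes, 16.4% higher and 15.8% lower). The median log2 change was -0.49 over tested members and -0.18 over all tested genes, and 27 members (64.3%, against 43.5%) had no overlap. This comparison shares its libraries with both others. The log2 change, Torin against naive, was 2.27 for Slc25a35, 1.64 for Slc25a26, 1.48 for Slc25a33, 1.42 for Slc25a39 and 1.36 for Slc25a5, beside 2.997, 1.44, 2.08, 1.10 and 1.75 in stimulated libraries. For Slc25a45 it was -4.12, for Slc25a40 -1.62 and for Slc25a14 -1.07. These 8 calls held in each of 20 alternatives. The phosphate carrier Slc25a3 was higher in all Torin than in all naive libraries (log2 change 0.71, SE 0.15, edgeR adjusted p = 0.0035), although not past the threshold with library totals alone (0.36, adjusted p = 0.175). Without Torin 1 the count of members past the threshold was 13 and without the libraries of number 4 it was 12.

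Transcript estimates were used to ask whether carriers changed isoform as well as level. A share is the percentage of a gene's counts given to 1 transcript, and log2 ratios of transcript to gene were tested with limma for 17 members with at least 2 transcripts at 10% or more of the gene. Between stimulated and naive libraries 5 of 17 members had a transcript whose ratio passed (29.4%, against 26% of 6318 genes). They were Slc25a3, Slc25a23, Slc25a27, Slc25a40 and Slc25a53. Between Torin and stimulated libraries limma called 0 of 17 (against 0.649% of genes), with 8 at an unadjusted p under 0.05. The diffSpliceDGE test of edgeR also called 0, with 2 at an unadjusted p under 0.05. Shares of all genes at the unadjusted cutoff were not computed, so these 2 counts carry no result about the carriers. Between Torin and naive libraries 3 of 17 passed (17.6%, against 15.7%), Slc25a23, Slc25a40 and Slc25a53. diffSpliceDGE called 0 members in each of these comparisons. Apart from Slc25a3, the members called had means below 10 CPM, which were lower in stimulated and Torin than in naive libraries. Before the ratio was taken, 0.5 CPM was added to transcript and gene. This moves the log2 ratio toward 0 as a gene falls, so for these members a changed isoform cannot be told from a lower level.

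For the phosphate carrier, the transcript Slc25a3-203 held 8.94, 11.2, 14.3 and 5.67% in naive 1 to 4, 17.1, 30.8, 46.1 and 43.7% in stimulated 1 to 4 and 5.63, 16.3 and 13.7% in Torin 1, 3 and 4. Stimulated 2, 3 and 4 stood above all other libraries, and stimulated 1 was only just above Torin 3 and naive 3. The log2 change of its ratio to the gene was 1.72 between stimulated and naive libraries (limma adjusted p = 0.0298) and -1.56 between Torin and stimulated libraries (limma adjusted p = 0.31). The first call ended without naive 1 (1.69), naive 4 (1.49), stimulated 2 (1.74), stimulated 3 (1.55) or stimulated 4 (1.58). Its level was 19.4 ± 7.78, 86.3 ± 34 and 37.8 ± 18.8 CPM in the 3 groups. Slc25a3-201, the main transcript, held 79.5% ± 4.03, 62.7% ± 12.9 and 84.2% ± 6.95. Both transcripts share the same 1071 coding nt, and Slc25a3-203 has 209 exon nt that Slc25a3-201 lacks while missing 338 of its nt, all outside the coding sequence.

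A further transcript carries an alternative coding exon part, with 125 coding nt in place of 122 of Slc25a3-201. The phosphate carrier is known for such mutually exclusive exons, which give muscle and ubiquitous forms. This transcript held 4.19, 8.75, 3.19 and 6.9% in naive 1 to 4, 2.22, 1.07, 1.29 and 1.03% in stimulated 1 to 4 and 0.926, 0.789 and 1.64% in Torin 1, 3 and 4. Each stimulated and Torin library was below each naive one. Its share reached a mean of 5% only in the naive group, where it was highest, so these values are a description without a test.

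**Figure D4:**
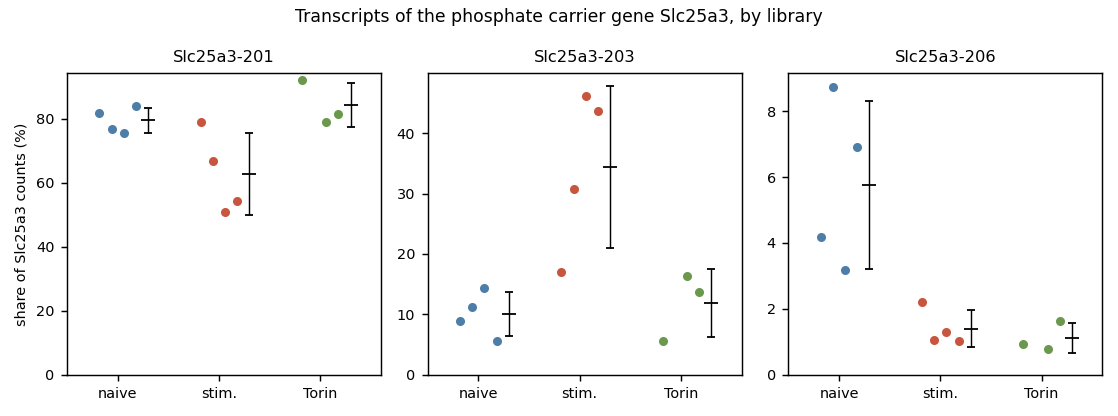
Share of Slc25a3 counts (%) in 3 transcripts, by library, with black bars for the mean and SD of each group; axes start at 0 and differ in scale (naive n = 4, stimulated n = 4, Torin n = 3). The share of Slc25a3-203 goes from 10.03% ± 3.64 in naive to 34.4% ± 13.4 in stimulated libraries, and the transcript with the alternative coding exon (right panel) is at 3.19% or more in naive and at 2.22% or less in all other libraries.

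Genes that work with the carriers were read from 3 lists. Of 5 carrier-fold proteins with other symbols, 4 were tested, and stimulation raised 1 and lowered 1. Mtch2, an outer membrane insertase with the carrier fold, rose from 203 ± 25.9 to 578 ± 18.4 CPM and stood at 329.6 ± 44 CPM under Torin (log2 change -0.81, SE 0.14, edgeR adjusted p = 0.0137). Its relative Mtch1 fell from 95.7 ± 6.05 to 30.9 ± 4.22 CPM and stood at 50.8 ± 4.07 CPM under Torin (log2 change 0.72, SE 0.13, edgeR adjusted p = 0.0174). Ucp2, the uncoupling protein of immune cells, stood at 358 ± 76.1, 257 ± 40.4 and 235 ± 15.1 CPM (adjusted p = 0.0506 for stimulated against naive).

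Of 23 genes for other mitochondrial solute transport, 9 rose and 4 fell with stimulation, where 19.2% of all tested genes rose and 20.2% fell, so the falls were near the share of all genes. Under Torin 1 of the 23 rose, where 2.32% of all tested genes did. This gene was Sfxn3. It fell from 77.7 ± 15.5 to 8.70 ± 5.37 CPM with stimulation and stood at 30.8 ± 1.98 CPM under Torin. Its log2 change was 1.82 between Torin and stimulated libraries (SE 0.36, edgeR adjusted p = 0.0213). Sfxn1, a serine importer, rose from 36.7 ± 12.4 to 175 ± 21.4 CPM (log2 change 2.25, SE 0.22, edgeR adjusted p = 2.65e-05), and the calcium uniporter gene Mcu from 7.45 ± 0.982 to 19.3 ± 3.66 CPM. Cpt1a, which makes the acylcarnitines that Slc25a20 imports, fell from 9.87 ± 1.99 to 1.64 ± 1.42 CPM (log2 change -2.59, SE 0.56, edgeR adjusted p = 0.00358). Of 28 enzymes next to the carriers, 13 rose and 6 fell with stimulation, beside the same 19.2% and 20.2% of all tested genes, which the falls again were near. The enzymes that fell with stimulation were Idh1, Idh2, Fech, Bcat2, Tk2 and Polg. Under Torin 2 of the 28 fell, where 2.3% of all tested genes did. Mthfd2 and Shmt2, mitochondrial enzymes of folate metabolism, rose from 12.9 ± 6.36 to 140.5 ± 35.6 CPM and from 58.6 ± 37.7 to 482 ± 73.4 CPM. Under Torin they stood at 48.7 ± 7.7 CPM (adjusted p = 0.0541) and 231 ± 14.9 CPM (adjusted p = 0.161). Acly, which cleaves the citrate exported by Slc25a1, rose from 17.4 ± 4.25 to 35.8 ± 7.0 CPM. Got2, the mitochondrial transaminase of the malate-aspartate shuttle, rose from 27.5 ± 4.08 to 58.9 ± 1.7 CPM and fell to 38.8 ± 2.7 CPM under Torin (log2 change -0.60, SE 0.14, edgeR adjusted p = 0.0358).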

How the data were processed

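The members and lists were chosen with earlier results of these data known. Estimated counts per gene and per transcript were used as deposited by the authors, in whole numbers, for 11 libraries made with a SMARTer ultra-low poly(A) kit, per the labels. STAR 2.7.1a, SAMtools 1.9, StringTie 2.1.0, R 4.0.5, DESeq2 1.30.1 and build mm39 are named without roles, per the submitters' processing notes. Columns headed Control were matched to the stimulated samples by number, and 0 columns were unused. Symbols and transcript lengths came from GENCODE M21 (GRCm38) by identifier, matching 52081 of 55414 genes, so no gene coordinates are given.

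For genes, edgeR 4.0.16 was run under R 4.3.3 (quasi-likelihood F test, TMM, filterByExpr at a count of 10, all libraries in 1 model, Benjamini-Hochberg over 22238 genes at 0.05), and transcript ratios with limma 3.58.1 and a prior of 0.5 CPM. Values per library, changes and errors are given for members with a group mean of at least 20 CPM that passed, for a named list of 18 carriers, and, chosen after their values were seen, for Slc25a14, Slc25a15, Slc25a20, Slc25a40 and Slc25a53. A carrier of this list is not reported here. Deviations from group means correlated between same-numbered stimulated and naive libraries (0.157, 0.226, 0.153 and 0.286; at most 0.0741 between different numbers). The values were 0.115, 0.149 and 0.306 between Torin and stimulated libraries (at most 0.0675 between different numbers). Between Torin and naive libraries they were 0.0809, 0.134 and 0.276 (at most 0.0703), a narrow margin for number 1. Numbers thus pair, but the main fit did not use this pairing, and the replicate block is given as an alternative. The labels do not explain the numbers. All library pairs differed far beyond sampling noise. Fits were tested on simulated data. Alternatives included DESeq2 1.42.0, library totals, other filters, the replicate block and leaving out libraries. Precision rests on the spread between libraries.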

Additional observations from a re-analysis of the deposited data

Results flagged for a closer look

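In 74 groups of 4 libraries, formed from carriers and from marker sums, a single library stood far from the other 3 in 11. Chance gives about 1 in 20 if values are normally distributed and groups independent, which was not tested. The 11 include marker sums of cell types already described above, so this count does not show how often carriers alone were flagged. Slc25a4 was at 364.7 CPM in naive 2, against 318.8 to 321.5 CPM in the other naive libraries. Slc25a26 was at 8.62 CPM in naive 1, against 6.97 to 7.15 CPM. Slc25a10 was at 3.18 CPM in stimulated 3, against 7.18 to 7.94 CPM. Slc25a28 was at 10.5 CPM in stimulated 1, against 7.92 to 8.16 CPM, and Slc25a39 at 254.0 CPM in the same library, against 174.9 to 185.6 CPM. Slc25a32 was at 18.8 CPM in stimulated 2, against 13.8 CPM in each of the other stimulated libraries.

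Granulocyte markers summed to 8573 CPM in naive 2, against 134.8 to 175.9 CPM in the other naive libraries, and to 2071 CPM in stimulated 2, against 17.4 to 41.7 CPM. Monocyte and macrophage markers summed to 2120 CPM (2119.6 CPM) in naive 2, against 120.6 to 218.9 CPM. B cell and plasma cell markers summed to 48046 CPM in naive 4, against 221.9 to 367.5 CPM, and to 14546 CPM in stimulated 4, against 43.2 to 116.8 CPM.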

How the results depend on the processing

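With library totals alone, the stimulated versus naive changes of Slc25a3 (-0.10) and Slc25a4 (-0.056) turned in sign. The median of the members was then -0.68 for stimulated versus naive and -0.83 for Torin versus naive (all genes -0.71 and -0.52), and the calls split into 7 higher and 15 lower, and 5 higher and 17 lower. A mean of 5 CPM gave a Torin versus naive median of -0.29. Leaving out single libraries gave Torin versus stimulated medians of -0.34 to 0 (0 without Torin 1). The counts of members past the threshold ranged from 20 to 23 for stimulated versus naive, 1 to 3 for Torin versus stimulated and 13 to 22 for Torin versus naive (12 without the libraries of number 4). For Torin versus stimulated, DESeq2 gave 10, a mean of 5 CPM 7, no filter 1, only the 2 groups compared 1, without the libraries of number 2 1 and without those of number 4 0. The replicate block gave 22, 2 and 21 members in these comparisons, 22, 1 and 21 of them shared with the fit without it, and it changed no other call than those given in the report. Members with a called transcript ratio ranged from 1 to 6 for stimulated versus naive and 2 to 4 for Torin versus naive when single libraries were left out. A prior of 2 CPM gave 9 and 5, transcripts at 5% or more 9 and 7, diffSpliceDGE 0 and 0 (3 and 3 members at an unadjusted p under 0.05), and the replicate block 4 and 2. The share of all genes at the unadjusted cutoff was not computed. Over all settings and named members, direction and call were kept in 428 cases and lost in 24 for stimulated versus naive, kept in 255, lost in 29 and gained in 15 for Torin versus stimulated, and kept in 414, lost in 47 and gained in 14 for Torin versus naive. The cause of these differences was not tested. With a common biological coefficient of variation of 0.791 and 3 or 4 libraries per group, small changes and members under 1 CPM are weakly resolved.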
